A study of Mus musculus with 12 samples.

Results

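The genes described here are Mtor, Mlst8, Deptor, Rptor, Akt1s1, Rictor, Mapkap1, Rheb, Tsc1 and Tsc2, which encode the subunits and the closest regulators of the mTOR complexes. They were chosen by name with earlier results of these data known, so their shares of calls are not independent evidence. All 10 were found among the 24062 gene symbols of the count table and passed the filter on low counts. RNA was sequenced from mouse embryonic fibroblasts (MEFs) that stably express an shRNA against Renilla luciferase, a gene that mouse cells lack (shRenilla, the control), or an shRNA against Birc6, which encodes BRUCE (shBruce#1). Each line was kept in full medium (FM) or starved for 2 h in medium without serum and amino acids (Starv), with 3 replicate libraries in each of the 4 groups. Each shRNA was present in a single line, so the effect of the knockdown and other differences between the lines cannot be told apart. The labels do not say whether replicates came from separate cultures, so the tests measure the spread between these libraries, which may be technical.

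The mTOR kinase joins cues from growth factors, amino acids and energy. It works in complex 1 (mTORC1), which drives protein synthesis and holds back autophagy, and in complex 2 (mTORC2), which phosphorylates AKT and SGK1. The TSC complex keeps the small GTPase RHEB inactive and so restrains mTORC1, which loses activity when cells lack serum and amino acids. This control acts largely on proteins, and the counts here measure mRNA only.

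Total counts ranged from 7717265 in a shBruce Starv library to 18510540 in a shRenilla FM library. Of 8 fibroblast markers, 7 were above 7 CPM (counts per 1000000 reads) in every library, whereas Thy1 was at 0 in 9 libraries. Of 23 markers of other cell types in the table, 21 stayed below 4 CPM in every library, and the others were Tubb3 (11.0 to 27.4) and Cd14 (4.80 to 12.3). Both bounds lie close to observed values, namely the minimum of Col3a1 (7.05) and the maximum of Kdr (3.56). The split between the marker sets is therefore a description and not a test. Replicates of shBruce Starv differed from each other more than those of any other group, with a chi-square per degree of freedom of 49.1 to 98.6 against 2.23 to 28.9. The effects of GC content and of transcript length also varied among libraries. Both were measured on each gene's log2 level relative to its mean over the 12 libraries. A value near 0 thus marks a library close to the average, not one without such an effect. Per 10 percentage points of GC content, this relative level changed by -0.226, -0.289 and -0.098 in shRenilla Starv replicates 1 to 3. In shBruce Starv replicates 1 to 3 it changed by 0.318, 0.143 and 0.001. The relative log2 level changed by -0.24 to 0.21 per doubling of length. Replicates 1 and 2 of shBruce Starv were at the low end (-0.17 and -0.24) and those of shRenilla Starv at the high end (both 0.21). Replicate 3 was at 0.03 in shRenilla Starv and at 0.04 in shBruce Starv.

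The knockdown was checked first. The guide of shBruce#1 is shown because it defines the line compared, with its seed (bases 2 to 8) in capitals.
shBruce#1 guide: tTTTAAACcatctttgagctgt
A site complementary to all 22 bases was present in 7 of 22 annotated Birc6 transcripts and in no annotated transcript of the 10 genes. There the longest complementary run was 7 to 13 bases, with 13 in Mapkap1 and 12 in Rictor. The run could lie anywhere in the guide, and matches to the seed alone were not searched for. Birc6 had 3273 to 5061 normalized counts in shRenilla FM and 1207 to 1390 in shBruce FM. After starvation the ranges were 2787 to 4759 and 703 to 1226, and in neither medium did the lines overlap. Its log2 fold change between the lines was -1.75 (SE 0.25, edgeR adjusted p = 0.0627) in FM and -1.98 (SE 0.25, adjusted p = 0.0186) in Starv. Normalized counts are read counts scaled to a common library size, and adjusted p values come from edgeR's quasi-likelihood test, two-sided and corrected over all 12154 genes tested, with a level of 0.05. The difference of Birc6 in Starv missed this level without shRenilla replicate 1 (-1.86, adjusted p = 0.110) or replicate 2 (-1.87, adjusted p = 0.115).

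**Figure D1:**
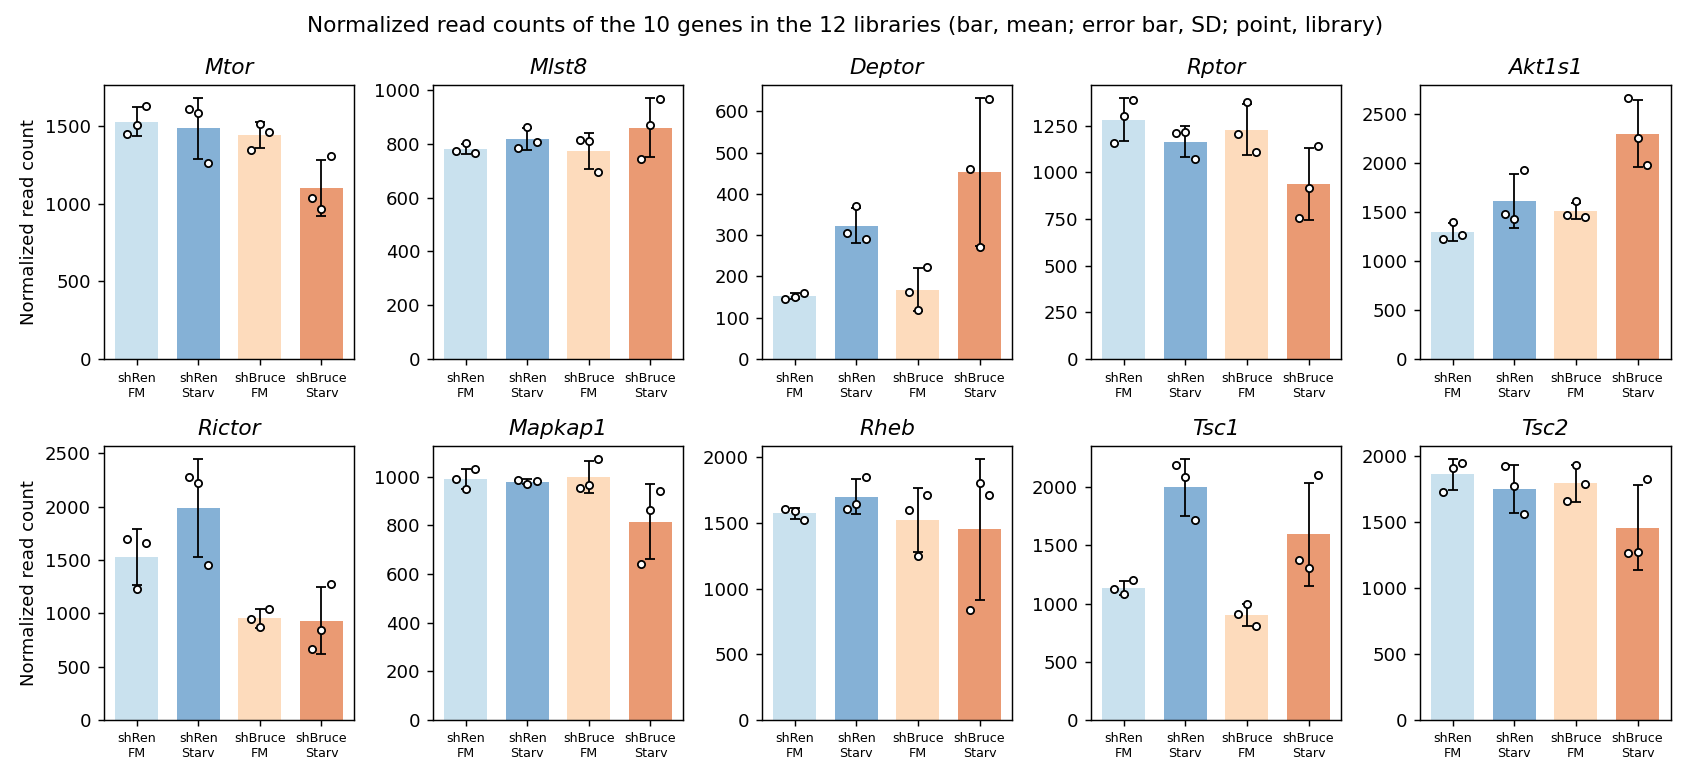
Normalized read counts (y axes, from 0) of the 10 genes in the 4 groups, with a point per library, a bar for the mean and an error bar for the SD (n = 3). Tsc1 and Deptor are higher in every Starv library than in every FM library of the same line, and all 3 shBruce libraries lie below the 3 shRenilla libraries for Rictor in each medium.

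Starvation was followed by more mRNA of Tsc1 and Deptor, both inhibitors of the pathway, in both lines. In shRenilla MEFs 2 of the 10 genes rose (Tsc1 and Deptor) and 0 fell, where 17% of all genes tested were called, 9.69% as higher and 7.27% as lower. In shBruce MEFs 3 rose (Tsc1, Deptor and Akt1s1) and 0 fell, against 23% of all genes called, 12.4% as higher and 10.6% as lower. Of all calls, 57.2% were higher in shRenilla and 54% in shBruce MEFs, or 71.2% and 68.1% under upper-quartile normalization, which left the calls among the 10 genes as they were. The kinase gene Mtor, the mTOR subunit genes Rptor, Mlst8, Rictor and Mapkap1, the TSC subunit gene Tsc2 and the GTPase gene Rheb did not pass the test in either line. The median log2 fold change of the 10 genes was 0.09 in shRenilla and -0.04 in shBruce MEFs, beside -0.01 and 0.02 over all genes tested.

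Tsc1 encodes hamartin, which stabilises the TSC complex. In shRenilla MEFs it had 1130, 1083 and 1202 normalized counts in FM and 2189, 2090 and 1720 in Starv. In shBruce MEFs it had 908, 999 and 806 in FM and 1379, 1306 and 2107 in Starv. Each line's Starv libraries were thus all above its FM libraries, with shBruce Starv replicate 3 the highest of its group. The log2 fold change was 0.81 (SE 0.17, edgeR adjusted p = 0.00604) in shRenilla and 0.82 (SE 0.17, adjusted p = 0.00465) in shBruce MEFs, or 1.76-fold and 1.77-fold. The difference between the lines in this response was 0.01 on the log2 scale (95% confidence interval -0.52 to 0.53, adjusted p = 0.995). Tsc1 passed the test in both lines in each of the 12 fits that left out a library and under the 10 other alternative settings.

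Tsc2 encodes tuberin, the subunit that stimulates GTP hydrolysis by RHEB. Its normalized counts were 1723 to 1945 in shRenilla FM, 1560 to 1922 in shRenilla Starv, 1655 to 1933 in shBruce FM and 1266 to 1827 in shBruce Starv, so that the media overlapped in both lines. The change with starvation was -0.09 (95% confidence interval -0.41 to 0.23) in shRenilla and -0.30 (-0.62 to 0.02) in shBruce MEFs on the log2 scale. Exons of Tsc2 share 693 bases with those of Pkd1 on the opposite strand (7.2% of its exonic bases), and since the strand setting of the counting is not given in the sources used here, reads in this stretch may belong to either gene.

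Because both TSC genes are read in the same library, their ratio does not depend on library size. The ratio of Tsc1 to Tsc2 counts was 0.656, 0.568 and 0.618 in shRenilla FM and 1.14, 1.18 and 1.10 in shRenilla Starv. In shBruce MEFs it was 0.548, 0.517 and 0.451 in FM and 1.09, 1.03 and 1.15 in Starv. The replicates were close in every group, including shBruce Starv, where the counts of each gene alone were scattered. The mean ratio rose 1.86-fold in shRenilla and 2.16-fold in shBruce MEFs (exact permutation p = 0.1 in each, two-sided, the smallest p that 3 against 3 libraries allow). In FM the ratio was lower in shBruce than in shRenilla MEFs without overlap (0.824 of the shRenilla mean, exact permutation p = 0.1), and in Starv the lines overlapped (0.955, exact permutation p = 0.4). The ratio shows that the 2 mRNAs changed unequally, not that either stayed constant. It was chosen after the values of both genes had been seen.

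**Figure D2:**
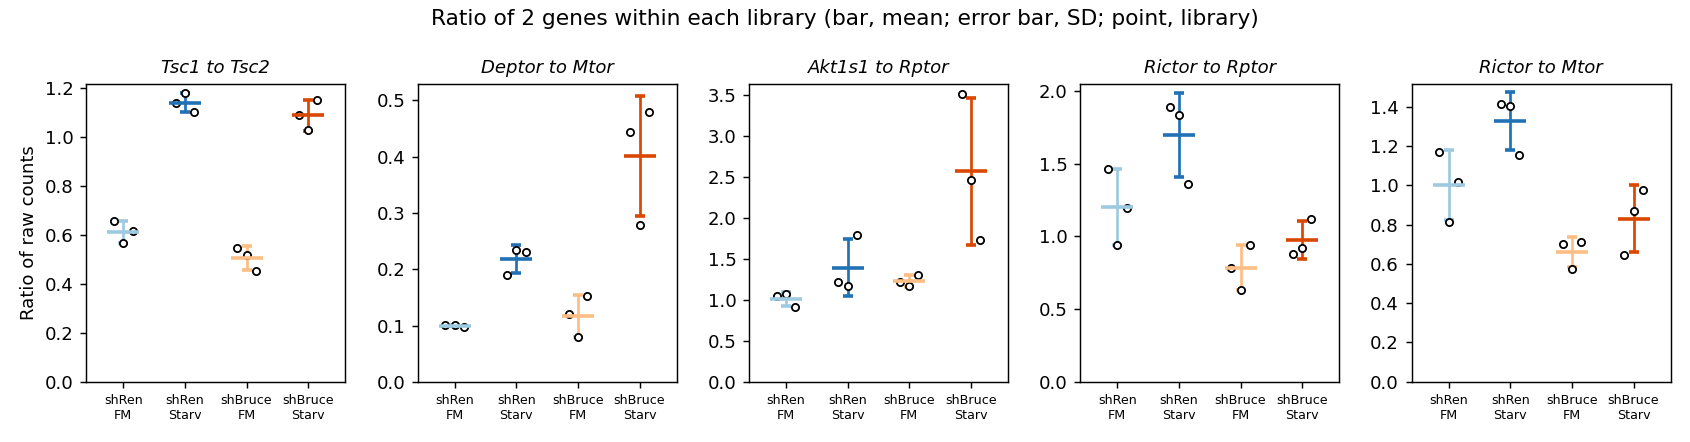
Ratios of raw counts of 2 genes within each library (y axes, from 0) in the 4 groups, with a point per library, a bar for the mean and an error bar for the SD (n = 3). The ratio of Tsc1 to Tsc2 lies between 0.451 and 0.656 in all FM libraries and between 1.03 and 1.18 in all Starv libraries.

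The promoters of both TSC genes are shown because the genes encode partners of a single complex, yet Tsc1 passed the test and Tsc2 did not. Each stretch runs from 250 bases before to 50 bases after the RefSeq start (GRCm38.p6), 5′ to 3′ on the strand of the gene, and capitals would mark a motif match. Tsc1 is at chr2:28640983-28641282 on the plus strand, and Tsc2 at chr17:24632578-24632877 on the minus strand.
Tsc1: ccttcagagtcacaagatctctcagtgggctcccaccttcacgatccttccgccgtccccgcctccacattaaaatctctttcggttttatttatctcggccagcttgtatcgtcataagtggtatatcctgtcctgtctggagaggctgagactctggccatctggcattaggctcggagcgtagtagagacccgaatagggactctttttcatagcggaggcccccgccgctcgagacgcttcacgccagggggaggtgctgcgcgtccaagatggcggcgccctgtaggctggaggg
Tsc2: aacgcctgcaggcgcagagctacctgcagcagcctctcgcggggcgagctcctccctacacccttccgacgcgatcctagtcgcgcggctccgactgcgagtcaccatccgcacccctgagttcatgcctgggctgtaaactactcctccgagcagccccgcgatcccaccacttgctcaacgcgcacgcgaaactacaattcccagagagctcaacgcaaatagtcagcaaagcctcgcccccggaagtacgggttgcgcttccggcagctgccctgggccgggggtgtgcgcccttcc
Neither held CACGTG (the E-box core of elements bound by TFEB), GTAAACA (the core bound by forkhead factors) or TGATGNAA (a core bound by ATF4 with C/EBP factors), read on both strands. Of 32851 mouse promoter windows of the same length, 7.15%, 3.65% and 3.97% held these letters. Among the 10 genes, 9 had a promoter window. The matches found were CACGTG in Rheb, starting 96 bases before the start, and GTAAACA in Mapkap1. The latter is a single site that lies in both overlapping windows of Mapkap1, starting 99 and 179 bases before their starts. The motifs do not overlap each other in these windows. The motifs were chosen after the expression values were known.

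Deptor encodes a protein that binds mTOR and inhibits both complexes. It was the least abundant of the 10 genes. In shRenilla MEFs it had 146, 151 and 160 normalized counts in FM and 306, 371 and 291 in Starv. In shBruce MEFs it had 161, 119 and 224 in FM and 460, 271 and 629 in Starv. No Starv library overlapped the FM libraries of its line, and the spread was widest in shBruce Starv. The log2 fold change was 1.08 (SE 0.27, edgeR adjusted p = 0.0163) in shRenilla and 1.43 (SE 0.28, adjusted p = 0.00268) in shBruce MEFs, or 2.12-fold and 2.69-fold. In shRenilla MEFs the call was lost, with log2 fold changes of 0.97 to 1.15 in all fits that left out 1 library, when any of the 3 shRenilla FM libraries or shRenilla Starv replicate 2 was left out. In shBruce MEFs it was called in each of the 12 fits that left out a library and under the 10 other settings. The responses of the lines differed by 0.35 (95% confidence interval -0.49 to 1.18, adjusted p = 0.833).

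Akt1s1 encodes PRAS40, an inhibitor that binds mTORC1. It had 1219, 1401 and 1269 normalized counts in shRenilla FM and 1473, 1425 and 1923 in shRenilla Starv. In shBruce MEFs it had 1473, 1606 and 1446 in FM and 2660, 2253 and 1979 in Starv. The media did not overlap in either line, but in shRenilla MEFs the gap was narrow. The log2 fold change was 0.31 (SE 0.14, edgeR adjusted p = 0.157) in shRenilla and 0.61 (SE 0.14, adjusted p = 0.00867) in shBruce MEFs. When the dependence of each library on transcript length and GC content was removed, the values were 0.36 (adjusted p = 0.00434) and 0.40 (adjusted p = 0.00166). When only the 6 libraries compared were fitted, Akt1s1 passed the level in shRenilla (0.33, adjusted p = 0.0448) and missed it in shBruce MEFs (adjusted p = 0.0542). The responses of the lines differed by 0.30 (95% confidence interval -0.14 to 0.73, adjusted p = 0.806). Exons of Akt1s1 share 89 bases with Tbc1d17 on the opposite strand and 73 with Mir707, which had 0 counts.

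Groups that do not overlap were common in these data. In shRenilla MEFs the media did not overlap for 3 of the 10 genes (Tsc1, Deptor and Akt1s1), beside 52.4% of all genes tested. In shBruce MEFs they did not overlap for 5 (these 3, Mtor and Mapkap1), beside 30.9%.

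The kinase gene Mtor had 1450, 1505 and 1633 normalized counts in shRenilla FM and 1614, 1585 and 1261 in shRenilla Starv. In shBruce MEFs it had 1349, 1515 and 1462 in FM and 1036, 970 and 1310 in Starv. The shBruce Starv libraries were thus all below the shBruce FM libraries, while the shRenilla media overlapped. The log2 fold change with starvation was -0.04 (SE 0.14, edgeR adjusted p = 0.869) in shRenilla and -0.38 (SE 0.14, adjusted p = 0.0632) in shBruce MEFs. Without shBruce Starv replicate 3 the value in shBruce MEFs was -0.53 (adjusted p = 0.0086), and with the length and GC trend removed it was -0.33 (adjusted p = 0.0184). Rptor, which encodes RAPTOR, the subunit that brings substrates to mTORC1, gave -0.14 in shRenilla and -0.39 (SE 0.15, adjusted p = 0.0811) in shBruce MEFs. Its normalized counts were 1158 to 1387 in shRenilla FM, 1071 to 1215 in shRenilla Starv, 1109 to 1376 in shBruce FM and 757 to 1140 in shBruce Starv. Leaving out shBruce Starv replicate 3 added 4 falling genes in shBruce MEFs, namely Mtor, Rptor, Mapkap1 and Tsc2, in a fit that called 4009 of 12278 genes against 2790 of 12154 with all libraries. With all libraries kept, DESeq2 also called Mtor (-0.39, adjusted p = 0.0364), and Mapkap1 was called with the length and GC trend removed (-0.31, adjusted p = 0.0259).

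The remaining genes did not pass the test with starvation. Mlst8, whose product binds the kinase domain in both complexes, was steady, with 767 to 864 normalized counts over the 6 shRenilla libraries and 695 to 965 over the 6 shBruce libraries. Its log2 fold changes were 0.07 and 0.16. Its exons share 997 bases (22.5%) with Bricd5 on the opposite strand, which had 42 counts over all libraries, and the overlaps of Deptor with Gm9920 (12 counts) and of Rptor with Rptoros (1 count) were smaller. Mapkap1 encodes SIN1, an mTORC2 subunit, and changed by -0.02 and -0.29 (adjusted p = 0.141 in shBruce MEFs). Rheb, the activator of mTORC1, changed by 0.11 and -0.06, and its 834 normalized counts in shBruce Starv replicate 1 lay far below the 1807 and 1715 of replicates 2 and 3. That library also had the fewest total counts.

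**Figure D3:**
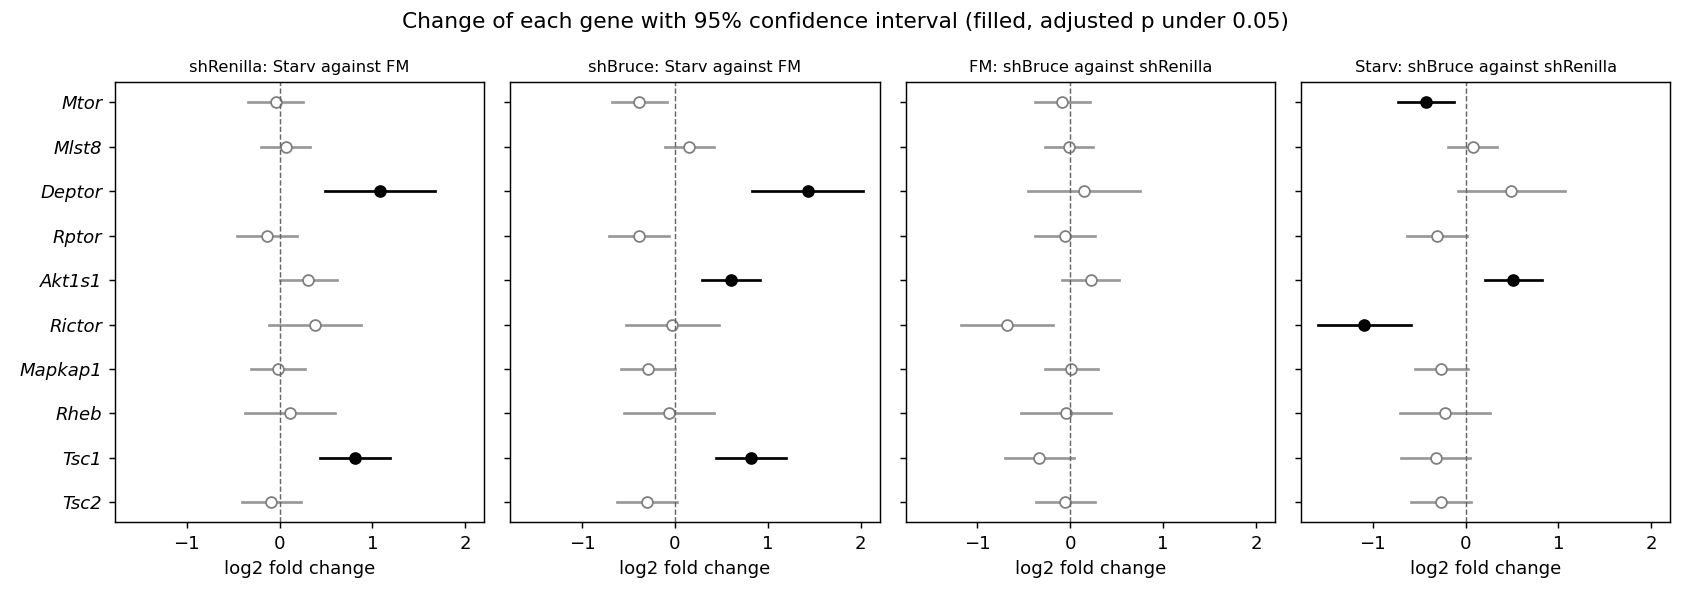
Log2 fold change (x axes) of each of the 10 genes (rows) in 4 comparisons, with 95% confidence intervals from the edgeR fit. Filled black symbols mark adjusted p under 0.05, and they appear for Tsc1 and Deptor in both starvation panels, for Akt1s1 in the shBruce starvation panel, and for Mtor, Akt1s1 and Rictor between the lines in Starv.

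Between the lines, Rictor had the largest log2 fold change of the set in both media as fitted, whereas with the length and GC trend removed Deptor had the largest. In FM 0 of the 10 genes were called, as were 0% of all genes tested, although 1750 of the 12154 genes, and Rictor among the 10, had an unadjusted p under 0.05. In Starv 3 of the 10 were called, Rictor and Mtor as lower and Akt1s1 as higher in shBruce MEFs, beside 23.9% of all genes (12.8% higher, 11.2% lower). The lines did not overlap for 3 of the 10 genes in FM (Akt1s1, Rictor and Tsc1), beside 33.4% of all genes, and for 3 in Starv (Akt1s1, Rictor and Mapkap1), beside 34.9%. The median log2 fold change of the 10 genes was -0.05 in FM and -0.26 in Starv, and over all genes it was within 0.01 of 0 in both.

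Rictor encodes the subunit that defines mTORC2. It had 1698, 1226 and 1658 normalized counts in shRenilla FM and 945, 869 and 1040 in shBruce FM. In Starv it had 2284, 2227 and 1457 in shRenilla and 666, 843 and 1278 in shBruce MEFs. All shBruce libraries were below all shRenilla libraries of the same medium, with replicate 3 of each line the closest pair in Starv. The log2 fold change between the lines was -0.68 (SE 0.23, edgeR adjusted p = 0.298) in FM and -1.09 (SE 0.23, adjusted p = 0.0225) in Starv. The ratio of Rictor to Mtor counts was also lower in every shBruce library, with 0.574 to 0.712 against 0.815 to 1.17 in FM and 0.643 to 0.976 against 1.16 to 1.42 in Starv (exact permutation p = 0.1 in each medium). The ratio to Rptor likewise did not overlap in either medium, with means of 0.785 and 1.20 in FM and 0.974 and 1.69 in Starv for shBruce and shRenilla MEFs. Both ratios share the Rictor counts, so they are not separate evidence. A ratio also keeps any dependence of a library on GC content, which is 42.5% for Rictor, 54.2% for Mtor and 56.5% for Rptor. How far this dependence moved the ratios was not tested.

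Mtor was lower in shBruce than in shRenilla MEFs in Starv by a log2 fold change of -0.43 (SE 0.14, edgeR adjusted p = 0.0420), although the groups overlapped. Akt1s1 was higher by 0.51 (SE 0.14, adjusted p = 0.0283) without overlap. In FM their values were -0.08 (adjusted p = 0.763) and 0.22 (adjusted p = 0.456). These 3 calls were lost when the dependence on length and GC content was removed. The longest coding transcripts of Rictor and Mtor have 9312 and 8564 bases and that of Akt1s1 has 1812, with a GC content of 42.5%, 54.2% and 61.8%. Length and GC content were removed together, so their parts cannot be told apart. Over all genes the median log2 fold change between the lines in Starv ran from 0.452 in the bin of shortest transcripts to -0.40 in that of the longest, with the genes in 5 bins of about equal size. Rictor and Mtor are in the bin of the longest transcripts, and Akt1s1 is in the second bin, with a median of 0.142. Rheb (1784 bases), the only one of the 10 genes in the bin of the shortest, had a log2 fold change of -0.22 and did not pass the test. With each library's length and GC trend removed, the differences became -0.51 (adjusted p = 0.0577) for Rictor, -0.15 (adjusted p = 0.313) for Mtor and 0.02 (adjusted p = 0.909) for Akt1s1, so that none of these 3 was called. Deptor, at 0.49 (adjusted p = 0.18) before, was then called at 0.97 (adjusted p = 0.0356). The trend differed among replicates of a group as well as between the lines, and whether it arose in the libraries or in the cells was not tested.

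**Figure D4:**
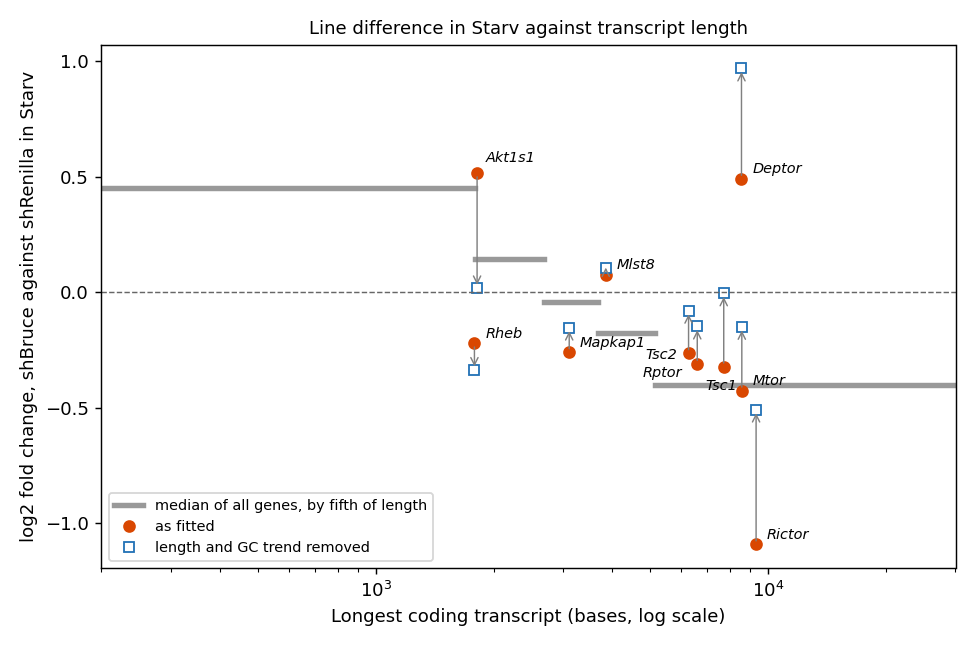
Log2 fold change between shBruce and shRenilla MEFs in Starv (y axis) against the length of the longest coding transcript (x axis, log scale) for the 10 genes, as fitted (filled circles) and with the length and GC trend of each library removed (open squares). Grey bars give the median of all genes in each of 5 bins of length, from 0.452 in the shortest to -0.40 in the longest, and the circle of Mtor lies near the bar of its length while that of Akt1s1 lies above its bar of 0.142.

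The calls of these line differences also rested on single libraries. The differences in Starv kept their direction in each of the 12 fits that left out a library. Their log2 fold changes were -1.40 to -0.92 for Rictor, -0.57 to -0.34 for Mtor and 0.38 to 0.66 for Akt1s1. In Starv, 0 of the 10 genes were called when replicate 1 or replicate 2 of shRenilla, or replicate 2 of shBruce, was left out. Over all genes these fits called 0, 0 and 15. Leaving out shBruce replicate 1 gave 1 call among the 10 (Rictor) and 573 of 12254 over all genes, and leaving out its replicate 3 gave 7 and 5735 of 12278, so the calls of the 10 genes moved with those of the whole table. The call of Mtor was also lost, with adjusted p of 0.0548 to 0.0610, when any shRenilla FM library or shBruce FM replicate 1 or 2 was left out. No difference between the lines in the response to starvation was called by edgeR for any of the 10 genes, as for 0% of all genes tested, where 474 genes but none of the 10 had an unadjusted p under 0.05. The interaction values of the 10 genes lay between -0.41 (Rictor) and 0.35 (Deptor), with the smallest adjusted p at 0.806.

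Levels per length place the genes relative to each other. In CPM per kilobase of exon, over the union of annotated exons, shRenilla MEFs in FM had 28.9 ± 2.10 (SD, n = 3) for Akt1s1, 16.7 ± 0.713 for Mapkap1 and 13.9 ± 0.398 for Rheb. Tsc2 (13.2 ± 0.845), Mlst8 (12.1 ± 0.280) and Mtor (10.4 ± 0.636) followed. Tsc1 (6.59 ± 0.347), Rptor (6.52 ± 0.589) and Rictor (6.18 ± 1.06) were next, and Deptor had 1.18 ± 0.0562. Neighbours whose replicates overlapped were Rheb and Tsc2, Tsc2 and Mlst8, Tsc1 and Rptor, and Rptor and Rictor, while the replicates of all other neighbours were apart. In Starv, Tsc1 reached 11.6 ± 1.43 in shRenilla and 9.24 ± 2.56 in shBruce MEFs, with means above those of Mtor (10.1 ± 1.32 and 7.49 ± 1.22) but overlapping replicates. Deptor was the lowest of the 10 in every group, at 2.49 ± 0.328 and 3.50 ± 1.38 in Starv. The order depends on the length used, since with the longest coding transcript Rheb came first in shRenilla MEFs in FM at 60.4.

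The genes whose levels followed Mtor most closely over the 12 libraries were Golga3 (Pearson r = 0.984), Arhgap35 (0.983), Iqgap3 (0.980), Dlg5 (0.974) and Slx4 (0.971), out of 9594 genes with a mean of at least 100 normalized counts. All 5 have longest coding transcripts of 5706 to 9147 bases. The libraries differ in their trend with length, and whether this contributed to the correlations was not tested. Among the 10 genes, Tsc2 (0.944) and Rptor (0.878) were the most like Mtor, Tsc1 had a correlation of 0.00 and Akt1s1 had -0.877. By Spearman's rho, Ap2b1 and Ddb1 came first (0.972 each), and Iqgap3 and Slx4 were at ranks 11 and 16. The coefficients describe these libraries and were not tested.

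Further genes of the pathway were counted from a list of 43, all of which passed the filter. In shRenilla MEFs 13 were called with starvation, 9 as higher and 4 as lower, and in shBruce MEFs 15 were called, 9 as higher and 6 as lower. Both shares lay above the backgrounds of 17% and 23% given above, but the list was chosen with earlier results of these data known, so its shares are not independent evidence, and it was not tested as a set. Of these genes, 12 were called in both lines, 8 as higher and 4 as lower in both, which is 92.3% of those called in shRenilla and 80.0% of those called in shBruce MEFs. The median log2 fold change of the list was 0.02 and -0.03, with values from -1.20 to 2.01 in shRenilla and from -1.54 to 2.06 in shBruce MEFs.

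Among partners of the complexes, 1 of 7 rose and 1 fell in each line, where 9.69% and 12.4% of all genes rose and 7.27% and 10.6% fell. Rhebl1, a close relative of Rheb, had 128, 120 and 135 normalized counts in shRenilla FM and 398, 369 and 474 in Starv, with log2 fold changes of 1.69 (SE 0.14) in shRenilla and 2.06 (SE 0.14) in shBruce MEFs. Rheb itself did not pass the test. Prr5, which encodes the mTORC2 partner Protor-1, fell by 1.00 in shRenilla and by 1.22 in shBruce MEFs on the log2 scale. Its 210, 280 and 227 normalized counts in shRenilla FM became 107, 116 and 135 in Starv.

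Among outputs and substrates of mTOR, 5 of 12 rose in each line, where 9.69% and 12.4% of all genes rose. They were the same genes, namely Lpin1, Pdcd4, Eif4ebp1, Eef2k and Ulk1. Lpin1, a phosphatidate phosphatase phosphorylated by mTORC1, rose by 2.01 in shRenilla and 1.84 in shBruce MEFs on the log2 scale. Pdcd4, an inhibitor of translation initiation, had 189, 187 and 220 normalized counts in shRenilla FM and 791, 772 and 793 in Starv, and its log2 fold changes were 1.98 and 1.93. Eif4ebp1, which encodes the translation repressor 4E-BP1, rose by 1.11 and 1.06. Sgk1, a kinase activated by mTORC2, fell from 7782, 6975 and 7110 normalized counts in shRenilla FM to 3227, 3305 and 2960 in Starv, by 1.20 on the log2 scale, and by 1.54 in shBruce MEFs. Rps6kb2 fell by 0.53 in shBruce MEFs.

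Among energy and stress inputs, 1 of 11 rose in each line, close to the shares of all genes that rose (9.69% and 12.4%). This was Ddit4, which encodes REDD1, an activator of TSC function under stress, with log2 fold changes of 1.68 (SE 0.21) and 1.26 (SE 0.21). Its normalized counts were 282, 351 and 272 in shRenilla FM and 862, 883 and 1142 in Starv. Of the 13 growth factor inputs, Irs2, an adaptor of the insulin receptor, rose by 1.16 and 1.36 on the log2 scale. Insr, the receptor itself, rose by 0.78 in shRenilla MEFs, and Pik3ca by 0.55 in shBruce MEFs. Akt1 fell by 0.48 and 0.71 and Pik3r1 by 0.61 and 0.60 in the 2 lines, and Pik3cb fell by 0.35 in shBruce MEFs.

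**Figure D5:**
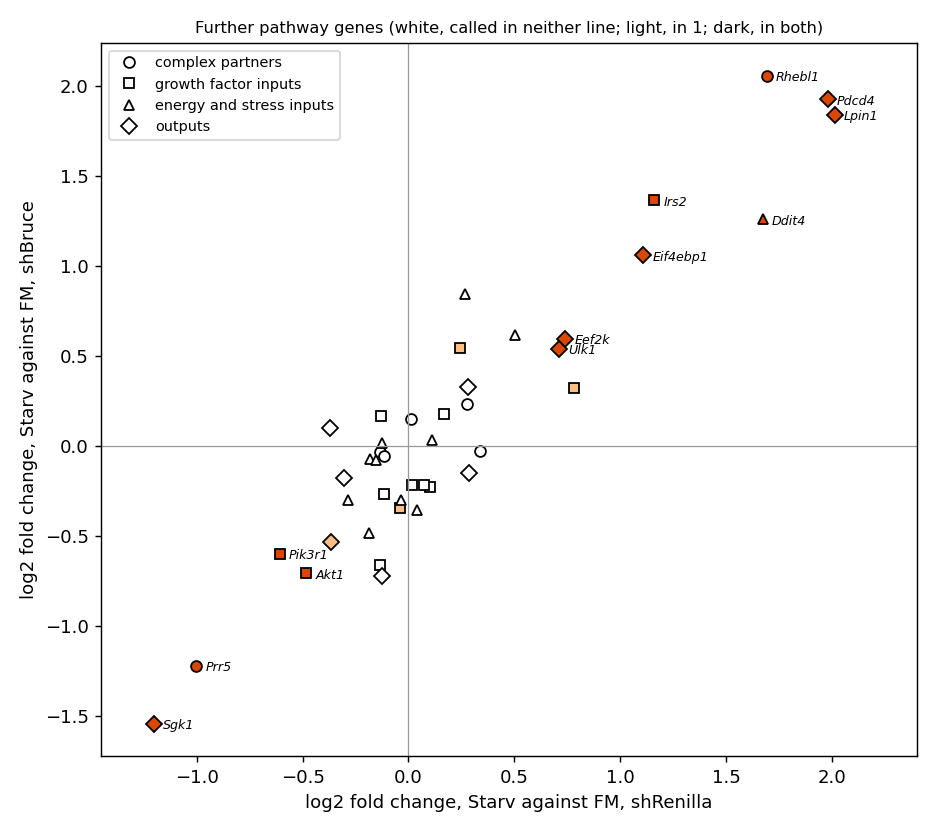
Log2 fold change with starvation of the 43 further pathway genes in shRenilla (x axis) and shBruce MEFs (y axis), with a symbol per list and the fill giving in how many lines the gene was called. The 12 named genes were called in both lines, and each has the same direction in both.

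Between the lines, 0 of the 43 genes were called in FM, as were 0% of all genes. There 15 of the 43 had an unadjusted p under 0.05, beside 1750 of all 12154 genes. In Starv 15 were called, 6 as higher and 9 as lower in shBruce MEFs, beside 23.9% of all genes (12.8% higher, 11.2% lower). Among those with the largest values were Prkaa2 (-1.03) and Eif4ebp2 (-0.98) on the lower side and Larp1 (0.56), Eif4ebp1 (0.55) and Rhebl1 (0.48) on the higher side, as log2 fold changes. With the length and GC trend removed, 3 were called (Pik3ca, Eif4ebp2 and Larp1), 2 as higher and 1 as lower, beside 678 of all 12154 genes. None of the 43 was called when shRenilla replicate 1 or 2 or shBruce replicate 2 of this medium was left out, where 0, 0 and 15 of all genes were called. Without shBruce replicate 1 of this medium 3 were called, and the count over all genes for that fit is given above. Without shRenilla FM replicate 1 or 3 there were 8, where 1972 of 12317 and 2021 of 12314 genes were called. With all libraries it was 2907 of 12154. The interaction was called by edgeR for 0 of the 43 genes, and 0 had an unadjusted p under 0.05, beside 474 of all 12154 genes.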

How the data were processed

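RNA-Seq of 12 libraries was analysed. The authors extracted RNA with TRIzol, removed DNA, selected poly(A) RNA for single-end sequencing, filtered reads matching rRNA, mapped the others to mm10 with STAR 2.4.0d and counted them per gene with HTSeq 0.5.4p3. The deposited table holds these counts without normalization. The annotation and strand setting are not given in the sources used here.

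The edgeR 4.0.16 package of R 4.3.3 was used to fit the counts (TMM, filterByExpr, a mean per group, all 12 libraries in 1 fit), with the quasi-likelihood test, two-sided, and Benjamini-Hochberg adjustment over the 12154 genes tested, at a level of 0.05. Confidence intervals are at 95%. The 4 groups share 1 estimate of the spread of each gene. This holds for shBruce Starv too, although its replicates differed from each other more than those of any other group. Single ratios were compared with an exact permutation test, whose smallest p with 3 against 3 libraries is 0.1. Total counts of 7717265 to 18510540 per library limit the precision less than the spread between replicates, which is given as the SD or the SE.

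Alternatives were limma-voom (limma 3.58.1, the method of the study), the Wald test of DESeq2 1.42.0, other size factors and filters, a block for the replicate number, a fit of the 2 groups of a comparison alone, removal of the dependence of each library on transcript length and GC content (splines with 4 degrees of freedom, over 12051 genes), and leaving out each library. The dependence of a library was measured relative to each gene's mean over the libraries. Transcripts and lengths came from GENCODE M21 on GRCm38, promoters from RefSeq (GRCm38.p6). The fits were tested on simulated data in which all groups had the same spread and only shRenilla Starv held changes. That test therefore cannot show how the fits handle the wider spread of shBruce Starv. Figures were drawn with matplotlib 3.10.9 in Python 3.11.15.

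The 10 genes and the list of 43 were chosen with earlier results of these data known. Named were the 10 genes, up to 3 rising and 3 falling listed genes per comparison with the largest log2 fold change among those called, every listed gene of a count of 5 or fewer, the 5 genes most correlated with Mtor over the 12 libraries, Birc6 and genes overlapping the 10. The values of 1 listed gene that this rule names are not reported here. The shRNA screen, protein and imaging data were not used here.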

Additional observations from a re-analysis of the deposited data

How the results depend on the processing

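Of the 8 calls made for the 10 genes over the comparisons, 0 changed direction and 31 of their 176 recomputed values lost the call. Removing the length and GC trend gave 5 calls with starvation in shBruce MEFs (adding Mtor and Mapkap1 as lower), also with the replicate block added. Over all 12154 genes these fits called 4009, or 3700 with the block, against 2790 as first fitted. Between the lines in Starv, removing the trend gave 1 call of the 10 (Deptor), or 0 with the block added. Over all genes these fits called 678 and 1. A fit of only the groups compared gave 1 call between the lines in FM (Rictor, -0.68, adjusted p = 0.0478) and 0 in Starv. Over all genes it called 597 of 11680 and 0 of 11969. Leaving out each library in turn gave 1 to 2 calls with starvation in shRenilla MEFs, 3 to 7 in shBruce MEFs and 0 to 7 between the lines in Starv. The counts over all genes moved as well. In shRenilla MEFs, the fits with 1 call of the 10 called 1149 to 1224 of all genes, against 2061 with all libraries. The fits with 7 calls left out shBruce Starv replicate 3. Their counts over all genes, and those of the fits with 0 calls, are given above. With 2 libraries left in a group, the spread that the groups share in the fit rests more on the other groups.

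Of the 43 listed genes, 23 were called with starvation in shRenilla and 9 in shBruce MEFs when only the groups compared were fitted, 6 between the lines in FM and 0 in Starv, against 13, 15, 0 and 15. Over all genes these fits called 5013 of 11954, 956 of 11787, 597 of 11680 and 0 of 11969. In FM, DESeq2 called 1 (Ddit4), beside 76 of all 12154 genes. In Starv, 3 were called with the trend removed, 0 with the trend removed and the replicate block, and 0 to 22 when a library was left out.

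Equal replicate numbers did not pair the libraries. Deviations from the group means correlated from -0.438 to 0.326 between libraries of the same number, with 4 of 18 over 0.1, and from -0.359 to 0.478 between different numbers. With the replicate block, 2 of the 10 genes (Akt1s1 and Rictor) and 9 of the 43 were called between the lines in Starv. Over all 12154 genes this fit called 1932, against 2907 without the block. Mtor was then at -0.43 (adjusted p = 0.0653). The other calls among the 10 genes were kept.

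The difference of Birc6 between the lines in FM passed the level with DESeq2 (-1.75), without a filter (-1.77), with only the groups compared (-1.75), with the trend removed (-1.38) and with the block added (-1.38). In Starv it missed the level with only the groups compared (-1.99). Leaving out a library gave -1.92 to -1.63 in FM and -2.20 to -1.77 in Starv.

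The values that changed sign were uncalled. The causes of these and the above changes were not tested. Upper-quartile normalization gave 0.039 for Mtor and 0.066 for Mapkap1 with starvation in shRenilla MEFs, 0.062 for Rictor and 0.033 for Rheb in shBruce MEFs, and 0.0023 for Mlst8 between the lines in FM. Mapkap1 was at -0.003 without a filter in FM and at 0.0048 with starvation in shRenilla MEFs when only the groups compared were fitted. The interaction of Tsc1 was -0.0096 with limma-voom, -0.0055 without a filter and -0.0053 with the replicate block. In FM, removing the trend gave 0.054 for Mtor, -0.029 for Akt1s1 and 0.029 for Tsc2, and with the block added 0.054, -0.028 and 0.030, with Rptor at 0.0035.

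Leaving out a library turned the sign of 15 uncalled values. With starvation in shRenilla MEFs the ranges were -0.10 to 0.064 for Mtor and -0.057 to 0.014 for Mapkap1, and in shBruce MEFs -0.25 to 0.20 for Rheb and -0.33 to 0.14 for Rictor. In FM they were -0.12 to 0.34 for Deptor, -0.044 to 0.044 for Mapkap1, -0.052 to 0.056 for Mlst8, -0.15 to 0.076 for Rheb, -0.15 to 0.0079 for Rptor and -0.11 to 0.0007 for Tsc2. In Starv they were -0.017 to 0.15 for Mlst8 and -0.41 to 0.037 for Rheb. For the interaction they were -0.0022 to 0.16 for Mlst8, -0.36 to 0.073 for Rheb and -0.25 to 0.13 for Tsc1.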
